A study of Mus musculus with 31 samples.

Results

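Hippocampal RNA of Glud1 transgenic (Tg) mice at 9 months of age was set against that of wild type (wt) mice of the same age. The 6 arrays, from 3 Tg and 3 wt mice, were those whose labels carry this age, out of 31 arrays in the series. The mice were males of the strain C57BL/6, and no treatment is named for either genotype. The Tg mice carried an added open reading frame of Glud1 that is over-expressed in neurons. The promoter that drives it and the number of founder lines are not given in the sources used here, and whether Tg and wt mice were littermates is not given either. The remaining 25 arrays, of Tg and wt mice at 10 days, 4.5, 14.5 and 20 months, entered the same fit and served to ask whether a difference at 9 months departed from that at other ages.

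Glud1 encodes glutamate dehydrogenase 1, a mitochondrial enzyme that interconverts glutamate and alpha-ketoglutarate. Glutamate is the main excitatory transmitter of the hippocampus. Released at the synapse, it opens AMPA, NMDA and kainate receptors and acts on metabotropic receptors, and calcium entry and kinase signalling then switch on immediate early genes, which are transcribed without the need for new protein. The hippocampus holds granule cells of the dentate gyrus, pyramidal cells of the CA fields, inhibitory interneurons and glia, and it borders the thalamus, the cortex and the choroid plexus. In RNA of a whole dissected hippocampus, fewer cells of a type and less RNA per cell cannot be told apart.

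Each array (an Affymetrix mouse genome chip) measures 45037 mouse probe sets, and 26877 of them, those with a signal above that array's median on 3 or more of the 31 arrays, were tested. Signals are given in arbitrary units after quantile normalization, with an array median of 115, and differences as log2 fold changes of Tg over wt with their standard error. A gene is shown by its probe set with the highest mean, which gave 12844 genes. The arrays at 9 months had the widest spread between mice of one group. The median SD of a probe set was 0.212 in Tg and 0.218 in wt on the log2 scale, against 0.112 to 0.186 in the 8 groups at other ages. The beta-actin 3′ over 5′ ratio, which grows as RNA is shortened, was higher at 9 months than on any array of another age. Its log2 was 0.709, 0.739 and 0.756 in Tg and 0.768, 0.897 and 0.963 in wt, so the genotypes did not overlap (exact permutation test, two-sided, p = 0.1, the smallest that 3 against 3 allows), and it ran from 0.315 to 0.552 at other ages. The ratio of the transferrin receptor ran the other way, with a log2 of 2.24, 1.94 and 2.16 in Tg and 0.655, 1.80 and 1.52 in wt, again with no overlap (exact permutation test, two-sided, p = 0.1). The Gapdh ratio overlapped between Tg and wt (exact permutation test, two-sided, p = 0.7), and the array medians before normalization ran from 131 to 140 in Tg and from 120.3 to 136 in wt. These permutation tests on 3 mice of each genotype measure only the spread between these mice. The standard errors and limma p-values that follow use a spread shared by all 10 groups instead. The 8 groups at other ages in it had a smaller spread than the 9-month mice.

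**Figure D1:**
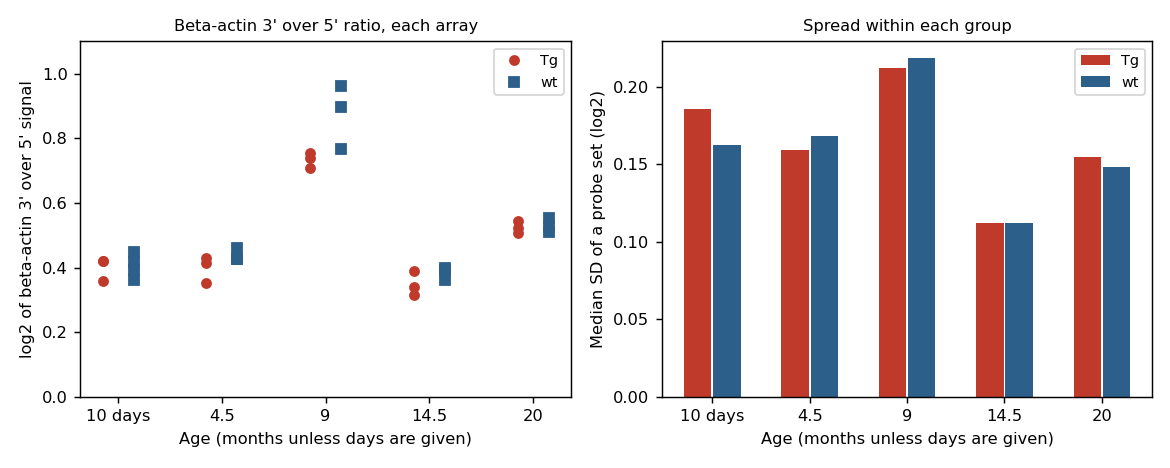
Left, log2 of the beta-actin 3′ over 5′ signal of each array, by age in months (10 days for the youngest), for Tg (red circles) and wt (blue squares). Right, the median SD of a probe set within each group on the log2 scale. The arrays at 9 months lie between 0.709 and 0.963, above those of every other age, and their 2 groups have the widest spread.

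Glud1 itself did not pass the test. Its signals were 5074, 5644 and 5656 in Tg and 6201, 5457 and 5914 in wt hippocampi, and the groups overlapped (-0.10 ± 0.07, limma adjusted p = 0.449). The other probe set of Glud1 gave -0.05 (adjusted p = 0.82). Both lie in the 3′ untranslated region of the transcript, which the transgene lacks according to the study, so neither checks which arrays came from Tg mice. Of 27 marker genes listed for pyramidal and granule neurons, the principal neurons of the hippocampus, 25 had a probe set named for them here, and all 25 passed the filter on low signals.

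At 9 months, 83 probe sets were higher and 109 were lower in Tg than in wt hippocampi by 1.3-fold or more with an adjusted p no higher than 0.01 (limma, 0.309% and 0.406% of the probe sets tested). At an adjusted p under 0.05 with no fold threshold, 436 were higher and 498 lower, or 1.62% and 1.85%. Counted by genes, 19 were higher and 70 lower at the stricter threshold (0.148% and 0.545%), and 102 were higher and 282 lower at an adjusted p under 0.05 (0.794% and 2.2%). The median log2 fold change over all genes was -0.05. With array medians set equal in place of quantile normalization, 17 probe sets were higher and 64 lower, and with the deposited signals as they were 65 were higher and 57 lower, so that the share of higher calls was 21.0% and 53.3%, against 43.2%. These calls rest on the spread shared by all 10 groups. With the 6 arrays fitted alone, 0 probe sets passed an adjusted p under 0.05 (limma, lowest adjusted p 0.121), while 2368 of 22875 had an unadjusted p under 0.05. Of the 192 called probe sets 172 could be tested there, and all 172 were among the 2368. They were called by the difference on these same 6 arrays, so this is no further evidence. With array weights estimated for each age, 3 were higher and 3 lower at the stricter threshold, and 14 and 19 at an adjusted p under 0.05. Single mice also moved the counts. Without Tg replicate 3 they were 18 higher and 41 lower, without wt replicate 2 they were 50 and 40, and without wt replicate 3 they were 168 and 100.

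Among the 89 genes past the stricter threshold, the Tg and wt mice did not overlap for any, where 4.56% of all genes had every Tg mouse above every wt mouse and 9.72% every Tg mouse below. Of these 89, 14 higher and 33 lower genes had a mean signal above the median of the tested probe sets in the group where they were high. The 14 that rose and the 15 that fell most are described here. They were chosen by these values, so their separation is no further evidence. Of these 29 genes, 7 also passed an adjusted p under 0.05 with array weights by age. These were Mboat2, Rraga, Srsf9 and AY036118 among the rises and Ldb2, Tbc1d30 and Polr2a among the falls.

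Dlg4, which encodes PSD-95, the main scaffold of excitatory synapses, was higher in Tg hippocampi. Its signals were 2364, 1707 and 2633 in Tg and 1589.6, 965 and 1542 in wt, a log2 fold change of 0.72 ± 0.15 (adjusted p = 0.00769). The lowest Tg mouse lay just above the highest wt mouse, and wt replicate 2 was the lowest. Without Tg replicate 3 Dlg4 was at 0.59 with an adjusted p of 0.0538. Both other probe sets of Dlg4 were also positive, at 1.12 (adjusted p = 0.04) and 0.47 (adjusted p = 0.21). Jph1, a junctophilin that ties the endoplasmic reticulum to the plasma membrane, had 1095, 1200 and 966 in Tg and 384, 664 and 773 in wt (0.90 ± 0.19, adjusted p = 0.00832). The wt mice varied more than the Tg mice here, with wt replicate 1 the lowest. A second probe set of Jph1 gave 0.34 (adjusted p = 0.43). Mboat2, an acyltransferase that remodels membrane phospholipids, had 1365, 1333 and 1709 in Tg and 952, 818 and 838 in wt (0.75 ± 0.11, adjusted p = 0.000474). Its groups stood well apart, although a second probe set of Mboat2 gave -0.13 (adjusted p = 0.73).

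Cacna1h, a T-type calcium channel that opens at low voltage, had 1295, 1533 and 1784 in Tg and 1101, 1089.9 and 1016 in wt (0.51 ± 0.10, adjusted p = 0.00591). Carf, a calcium-responsive transcription factor, had 590.3, 684 and 421 in Tg and 282, 383 and 336 in wt (0.74 ± 0.16, adjusted p = 0.00796). Dgkh, a diacylglycerol kinase, had 3473, 3557 and 4040.5 in Tg and 2580.4, 2343 and 2478 in wt (0.58 ± 0.12, adjusted p = 0.00591). All wt mice of Cacna1h and Dgkh lay close together below the Tg mice. Other probe sets of Dgkh gave 0.56 (adjusted p = 0.017) and 0.91 (adjusted p = 0.0066). Rraga, the Rag GTPase that brings the growth-controlling kinase complex mTORC1 to the lysosome when amino acids are present, had 1627, 1503 and 2378 in Tg and 1117, 1004 and 1362 in wt (0.64 ± 0.11, adjusted p = 0.00196). Its highest value came from Tg replicate 3.

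Srsf9, a splicing factor, had 1984, 1618 and 2135 in Tg and 1163, 1299 and 1389 in wt (0.57 ± 0.09, adjusted p = 0.00157). Alkbh8, an enzyme that modifies transfer RNA, rose by 0.62 ± 0.10, with 3 nearly equal Tg mice (1207, 1150.4 and 1152) against 626, 772 and 912 in wt. Abcb8, a transporter of the mitochondrial inner membrane, rose by 0.63 ± 0.12, Pwwp2a, a chromatin reader, by 0.70 ± 0.14, and Rsl1d1, a nucleolar protein, by 0.51 ± 0.11 (0.43 with an adjusted p of 0.0575 without Tg replicate 3). Pphln1, which takes part in gene silencing, rose by 0.49 ± 0.10, while its second probe set gave -0.33 (adjusted p = 0.49). Second probe sets gave 0.18 for Abcb8 (adjusted p = 0.67), 0.73 for Pwwp2a (adjusted p = 0.091) and 0.65 for Alkbh8 (adjusted p = 0.103). AY036118, a transcript listed without a name, had the highest log2 fold change of the 14, 1.67 ± 0.30 (adjusted p = 0.00466). Its Tg mice were alike (2998, 2784 and 2551) and its wt mice were not (777, 433 and 1979), and wt replicate 3 came near the Tg mice.

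**Figure D2:**
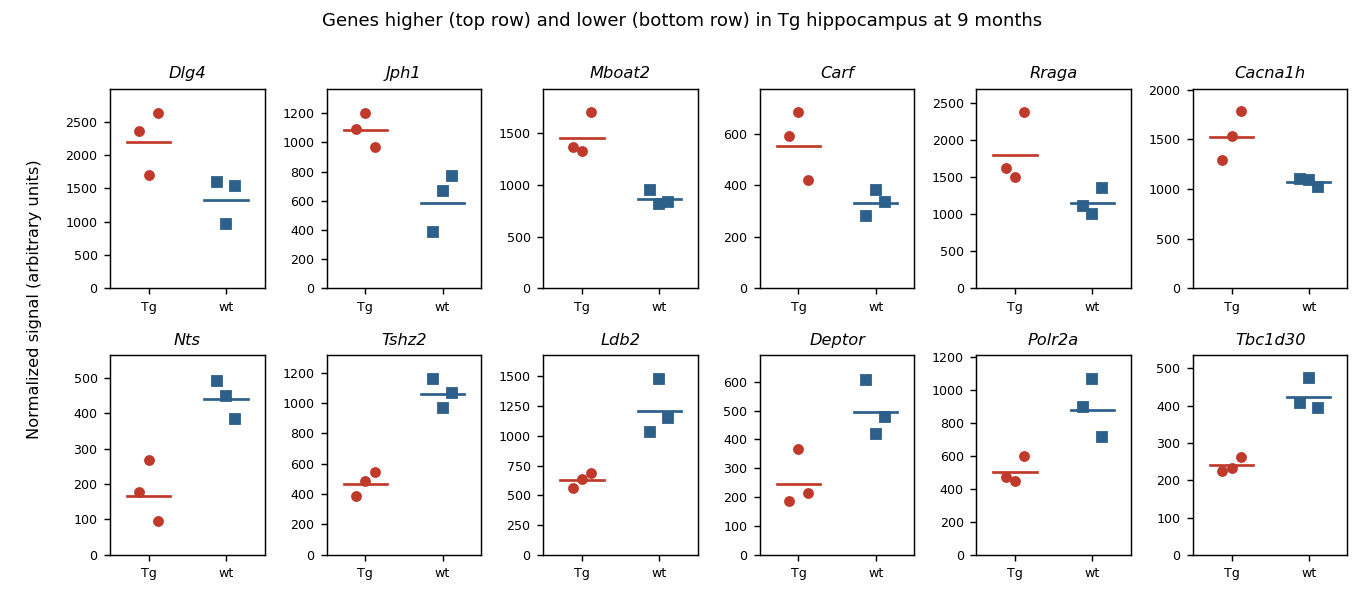
Normalized signal in each hippocampus at 9 months (vertical axes, arbitrary units from 0) for 6 genes that rose and 6 that fell in Tg, with Tg mice as red circles and wt mice as blue squares. Lines are group means on the log2 scale. The groups do not overlap for any of the 12, with the narrowest gap for Dlg4 among the rises and for Deptor among the falls.

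Nts, which encodes the neuropeptide neurotensin, fell most of these 15. Its signals were 178, 267 and 95.4 in Tg and 492, 449 and 383 in wt hippocampi (-1.41 ± 0.27, adjusted p = 0.00518), with Tg replicate 3 the lowest. Tshz2, a zinc finger transcription factor, had 388, 484 and 542 in Tg and 1155, 969.5 and 1063 in wt (-1.18 ± 0.23, adjusted p = 0.00511), so every Tg mouse was well below every wt mouse. Other probe sets of Tshz2 gave -0.92 (adjusted p = 0.015) and -1.22 (adjusted p = 0.017). Ldb2, a cofactor of LIM-homeodomain transcription factors, had 561, 642 and 691 in Tg and 1032, 1478 and 1152 in wt (-0.94 ± 0.14, adjusted p = 0.000537), and its 2 other probe sets gave -0.47 (adjusted p = 0.056) and -0.23 (adjusted p = 0.67). Unc13c, a member of the Munc13 family that primes synaptic vesicles, had 315, 270.02 and 296 in Tg and 652, 532 and 639 in wt (-1.05 ± 0.19, adjusted p = 0.00335). The 3 Tg mice were alike here, and a second probe set of Unc13c gave -1.17 (adjusted p = 0.0077). Resp18, a protein of neuroendocrine secretory granules, was the most abundant of the named falls, with 1334, 1860.5 and 1703 in Tg and 2829, 2609 and 2869 in wt (-0.77 ± 0.16, adjusted p = 0.00816).

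Deptor, which binds and inhibits the kinase mTOR, had 187, 368 and 214 in Tg and 607, 420.4 and 476 in wt (-1.01 ± 0.21, adjusted p = 0.00807). Ddit4l, a relative of a stress-induced inhibitor of mTOR, had 394, 588 and 356 in Tg and 784, 734 and 938 in wt (-0.90 ± 0.17, adjusted p = 0.00447). Tg replicate 2 was the highest Tg mouse for both. The 4 other probe sets of Deptor were all negative, from -1.0 to -0.29, and 1 of them passed (-0.80, adjusted p = 0.014). The 2 others of Ddit4l gave -0.57 and -0.26, with adjusted p of 0.11 and 0.63.

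Polr2a, the largest subunit of RNA polymerase II, had 472, 451 and 599.6 in Tg and 896, 1069.8 and 715 in wt (-0.81 ± 0.12, adjusted p = 0.000844). Tbc1d30, a GTPase-activating protein of Rab GTPases, had 225, 234 and 262 in Tg and 406, 473 and 392 in wt (-0.82 ± 0.12, adjusted p = 0.000531). Both groups were tight for Tbc1d30. Tuba8, an alpha-tubulin, fell by 0.91 ± 0.19, Rgma, a repulsive guidance cue for axons, by 0.76 ± 0.16, and Entpd2, an enzyme that breaks down extracellular ATP, by 0.63 ± 0.12. Rnf144b, an E3 ubiquitin ligase, fell by 0.64 ± 0.13 (a second probe set gave 0.02), and Slc35f1, a member of the nucleotide-sugar transporter family, by 0.61 ± 0.13. The transcript 2610306M01Rik, listed without a gene name, fell by 0.75 ± 0.12. Second probe sets gave -0.25 for Tuba8 (adjusted p = 0.59), -0.64 for Polr2a (adjusted p = 0.45) and -0.10 for Slc35f1 (adjusted p = 0.82).

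The genes that follow were read by list, at an adjusted p under 0.05, with 1 probe set per gene. Over all genes 0.794% rose and 2.2% fell, and at an unadjusted p under 0.05, 727 of 12844 were higher and 1598 lower (limma). Another probe set of a gene can pass where the one shown does not. Over all genes, 286 of 10510 further probe sets were higher and 163 lower at an adjusted p under 0.05. Of 63 genes called in a list of a process or a cell type, 13 kept the call without each of the 6 mice in turn, and 1, Srsf9, kept it with array weights by age. The 13 were Egr2, Nrn1, Cacna1h, Capza2 and Srsf9, higher in Tg, and Nts, Drd1, Cbln1, Unc13c, Rgma, Rab27b, Rit2 and Birc5, lower in Tg. The other 50 lost it without at least 1 of the mice.

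Some immediate early and activity-regulated genes were higher in Tg at 9 months. Of 47 tested, 4 rose and 0 fell at an adjusted p under 0.05, where 0.794% of all genes rose. At an unadjusted p under 0.05, where 727 of all 12844 genes were higher and 1598 lower, 21 of the list were higher and 1 lower. Their median log2 fold change was 0.22, against -0.05 over all genes, and 0.15 against -0.13 with array medians set equal. All Tg mice lay above all wt mice for 14 of the 47, and all below for 2, where 4.56% and 9.72% of all genes did so. The summed signal of the list ran from 71755 to 77002 in Tg and from 59163 to 68709.7 in wt, so the groups did not overlap. Leaving out 1 mouse at a time gave 2 to 9 rises and 0 falls, with 2 without wt replicate 2 and 9 without wt replicate 3.

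Egr2, a zinc finger transcription factor induced by synaptic activity, had signals of 182, 153 and 262 in Tg and 13.8, 28.5 and 123 in wt (2.42 ± 0.49, adjusted p = 0.00601). The signals of wt replicates 1 and 2 lay far below the array median, and with 50 added to each signal the value was 1.36. Its other probe set gave 1.33 (adjusted p = 0.17). Dusp5, a phosphatase that switches off the MAP kinase ERK in the nucleus, had 379, 342 and 289 in Tg and 252, 117 and 207 in wt (0.87 ± 0.24, adjusted p = 0.0425). Dusp6, which acts on ERK in the cytoplasm, had 1552, 1274 and 1567 in Tg and 914, 891 and 1233 in wt (0.54 ± 0.13, adjusted p = 0.0197). Nrn1, or neuritin, which promotes the growth of neurites and synapses, had 9564, 8505 and 9169 in Tg and 7075, 7167 and 7080.3 in wt (0.35 ± 0.07, adjusted p = 0.00804). The wt mice were nearly equal for Nrn1, and every Tg mouse was above them.

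The best known members of the list did not pass. Fos, a subunit of the transcription factor AP-1, had 1449, 2008 and 2118 in Tg and 472, 960.2 and 1270.01 in wt (1.14 ± 0.51, adjusted p = 0.219). Its Tg mice were above its wt mice, with a wide spread in both. Fosb, a relative of Fos, had 116, 162 and 119.7 in Tg and 42.4, 35.1 and 101 in wt (1.3 ± 0.41, adjusted p = 0.073). Arc, a regulator of AMPA receptor endocytosis, had 1882, 1641 and 1603 in Tg and 655, 964 and 1496 in wt (0.80 ± 0.48, adjusted p = 0.377), and wt replicate 3 came close to the Tg mice. Nr4a1, an orphan nuclear receptor, was at 0.72 ± 0.26 (adjusted p = 0.122), Junb at 0.56 ± 0.25 (adjusted p = 0.216) and Npas4 at 0.64 ± 0.44 (adjusted p = 0.442). Wt replicate 1 had the lowest signal of all 6 mice for Fos, Arc, Nr4a1, Junb and Npas4. Egr1 and Egr3 overlapped between the groups, at 0.36 ± 0.13 and 0.12 ± 0.08, although a second probe set of Egr3 gave 1.05 (adjusted p = 0.029). Overlap was also seen for Bdnf, a growth factor of neurons, at 0.30 ± 0.13, and Homer1, a scaffold of metabotropic receptors, at -0.09 ± 0.09.

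**Figure D3:**
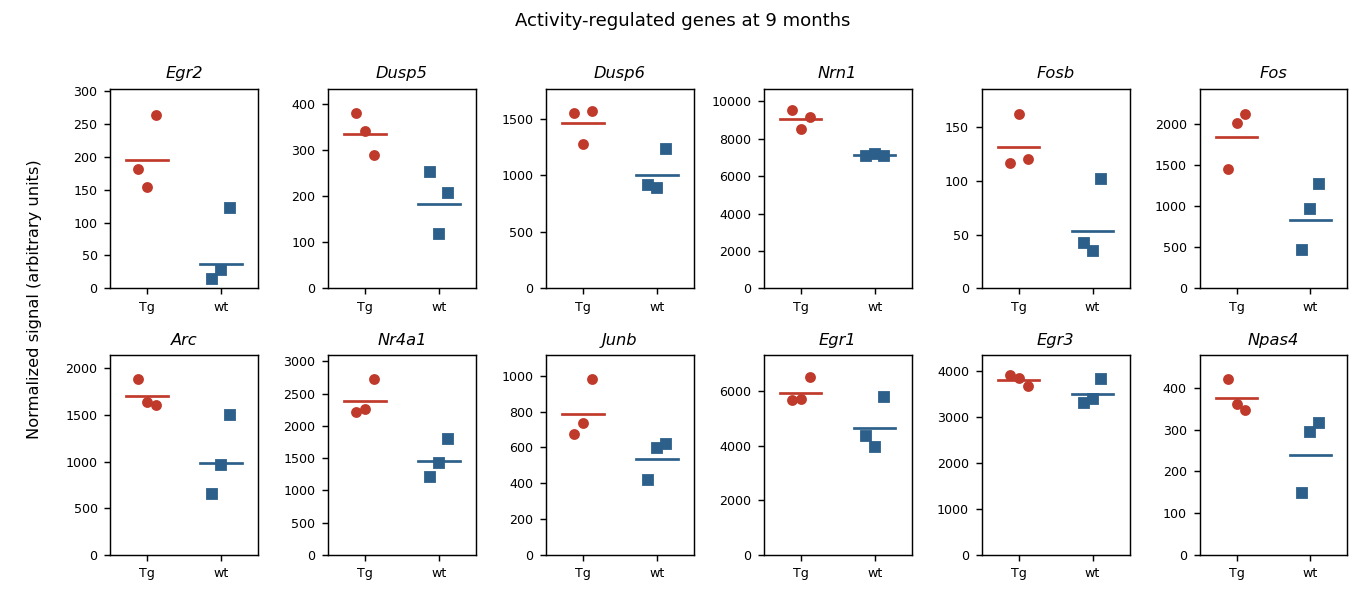
Normalized signal in each hippocampus at 9 months (vertical axes, arbitrary units from 0) for 12 immediate early and activity-regulated genes, with Tg mice as red circles, wt mice as blue squares and lines for group means on the log2 scale. Egr2, Dusp5, Dusp6 and Nrn1 passed an adjusted p under 0.05, and Egr1 and Egr3 overlap between the groups.

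The promoters of these genes are known for 2 kinds of element, the cAMP response element, bound by CREB, and the CArG box, bound by serum response factor. The 250 bases before the start sites given by RefSeq (GRCm38.p6) were searched on both strands for TGACG, the core of the first element, and for the CArG box, and the 2 motifs do not overlap in what is shown. Of 36 list members with a promoter in that table, 23 held TGACG (63.9%), 2 held a CArG box (5.56%) and 2 held both (5.56%). Of 10377 tested genes with a promoter, 30.2% held TGACG, 1.37% a CArG box and 0.482% both. Egr2 and Dusp5, which rose in Tg, were the 2 list members with both, and Fos, which did not pass the test, held TGACG in 2 places. Bases further upstream than 250 were not searched, so a CArG box there would be missed, for Fos as for any other gene. Egr2 had 5 listed start sites, and the stretch shown for it lies before a later site. A stretch that holds both motifs is shown for Egr2 and Dusp5, and for Fos the stretch with its 2 matches, 5′ to 3′, with the motifs in capitals and TGACG read on the other strand as CGTCA. A match is a match of letters only.
Egr2 (chr10:67537793-67537822, plus strand): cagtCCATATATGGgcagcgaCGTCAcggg
Dusp5 (chr19:53529051-53529106, plus strand): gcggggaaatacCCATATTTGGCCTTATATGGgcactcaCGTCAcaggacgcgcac
Fos (chr12:85473749-85473840, plus strand): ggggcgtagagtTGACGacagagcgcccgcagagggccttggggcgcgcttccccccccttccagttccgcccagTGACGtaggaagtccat
In Egr2 and in Dusp5 a CArG box is followed within a few bases by CGTCA, and Dusp5 holds 2 CArG boxes side by side. Dusp6 and Nrn1, the other list members that rose, are not shown, since Dusp6 held neither motif in this window and no promoter of Nrn1 was used here.

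Of 25 tested markers of pyramidal and granule neurons, 2 rose and 0 fell in Tg (8%, where 0.794% of all genes rose), with a median of 0.23 (0.14 with array medians set equal). At an unadjusted p under 0.05 (limma), 9 were higher and 3 lower, where 727 and 1598 of all 12844 genes were. Both called genes, Dsp and Prox1, are markers of granule cells. Dsp, desmoplakin, which granule cells of the dentate gyrus express, had 1173, 1194 and 1041 in Tg and 471, 335 and 919.5 in wt (1.11 ± 0.30, adjusted p = 0.0436). Prox1, the transcription factor that sets granule cell identity, had 388, 424 and 411 in Tg and 270.02, 204 and 248 in wt (0.77 ± 0.22, adjusted p = 0.0494). Wt replicate 3 was near the Tg mice for Dsp, while for Prox1 the groups stood apart, and both other probe sets of Prox1 were positive, at 0.75 and 1.02. The summed signal of the list was 42908 to 44071 in Tg and 39128 to 42171 in wt. Without Tg replicate 1, Tg replicate 3 or wt replicate 2, 0 of these markers were called. At 4.5 months the median of these markers between Tg and wt was 0.21, and at 20 months it was 0.00.

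Of 29 tested markers of thalamus, cortex and striatum, 4 fell and 0 rose, where 2.2% of all genes fell, with a median of -0.33 (-0.15 at 4.5 months). Drd1, the dopamine D1 receptor, had 91.2, 89.3 and 57.0 in Tg and 169, 579.6 and 235 in wt (-1.88 ± 0.33, adjusted p = 0.00228), and wt replicate 2 was far above the rest. Its other probe set gave -1.16 (adjusted p = 0.097). Cux2, a transcription factor of upper cortical layers, had 323, 365 and 309 in Tg and 639.8, 576 and 552 in wt (-0.83 ± 0.20, adjusted p = 0.0203), while its 2 other probe sets gave -0.19 and -0.20. Rxrg, a retinoid receptor that the striatum expresses, had 23.8, 52.1 and 49.9 in Tg and 92.7, 116 and 183 in wt (-1.66 ± 0.46, adjusted p = 0.0403), and Nts, described above, is the fourth. With 50 added to each signal the low Drd1 and Rxrg were at -1.41 and -0.96. The summed signal of the list was 11067 to 14297 in Tg and 14610.4 to 15523 in wt, so the groups did not overlap. Leaving out 1 mouse at a time gave 2 to 5 falls, with 2 without Tg replicate 3. Slc17a6, the vesicular glutamate transporter typical of thalamic neurons, had 269.8, 624 and 257 in Tg and 723, 927 and 721 in wt (-1.16 ± 0.31, adjusted p = 0.0426). The part of these markers in the falls of Nts, Tshz2, Ldb2 and other genes was not tested.

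Of 24 tested interneuron markers, 2 fell and 0 rose (8.33%, where 2.2% of all genes fell), with a median of -0.19 (-0.15 at 4.5 months). All Tg mice lay below all wt mice for 6 of the 24, where 9.72% of all genes did so. Gad2, which makes the transmitter GABA from glutamate, had 1276, 1733 and 1531 in Tg and 2583, 1988 and 1692 in wt (-0.45 ± 0.12, adjusted p = 0.0281). The groups overlapped for Gad2, and its other probe set gave 0.09 (adjusted p = 0.82). Reln, the secreted protein reelin of layer-bordering interneurons, had 1714, 1971 and 2260.1 in Tg and 2562, 2867 and 2659 in wt (-0.45 ± 0.12, adjusted p = 0.0339). The peptide genes Sst and Vip were lower in every Tg mouse without passing, at -0.42 ± 0.14 (adjusted p = 0.0947) and -0.37 ± 0.14 (adjusted p = 0.13), while Pvalb and Npy were at -0.10 ± 0.16 and -0.10 ± 0.14. The summed signal of the list was 38547 to 41176 in Tg and 41202 to 47078 in wt, so the groups nearly met.

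Glia and vessels gave few calls. Of 21 astrocyte markers 0 passed, with a median of -0.09, and of 26 oligodendrocyte and myelin markers 0 passed, with a median of -0.10 (limma; 6 and 4 of them at an unadjusted p under 0.05). Of 24 microglia markers only Fcer1g, a receptor subunit of immune cells, fell, at -0.45 ± 0.12 (adjusted p = 0.0373). Of 24 listed endothelial and mural markers and of 20 markers of meninges and ependyma 0 passed by the probe set shown (3 each at an unadjusted p under 0.05), with medians of -0.22 and -0.48. Another probe set of the mural marker Abcc9, a subunit of a potassium channel, was lower (-1.73, adjusted p = 0.031), and Erg, an endothelial transcription factor outside the list, is described further on. Choroid plexus markers set a single mouse apart. Their summed signal was 35916, 61609 and 8434 in Tg replicates 1, 2 and 3, against 46533 to 48396 in wt, and 0 of 18 passed (0 at an unadjusted p under 0.05), with a median of -0.92. Ttr, transthyretin, the most abundant of them, had 29489, 38416 and 4061 in Tg and 38416, 35385 and 35385 in wt (-1.13 ± 1.23, adjusted p = 0.667). Tg replicate 3 had the lowest choroid plexus sum, and it is also the mouse without which the fewest probe sets were called higher. The part of choroid plexus RNA in the calls was not tested. Of 34 genes of the interferon response and MHC class I, 0 passed (5 lower at an unadjusted p under 0.05), with a median of -0.31. Of the 14 erythrocyte and blood markers with a probe set 7 passed the filter and Bpgm, a red cell enzyme, was called, at -0.31 ± 0.09 (its 2 other probe sets gave 0.14 and -0.02), and of 6 tested markers of pituitary and hypothalamus 0 were (0 at an unadjusted p under 0.05).

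**Figure D4:**
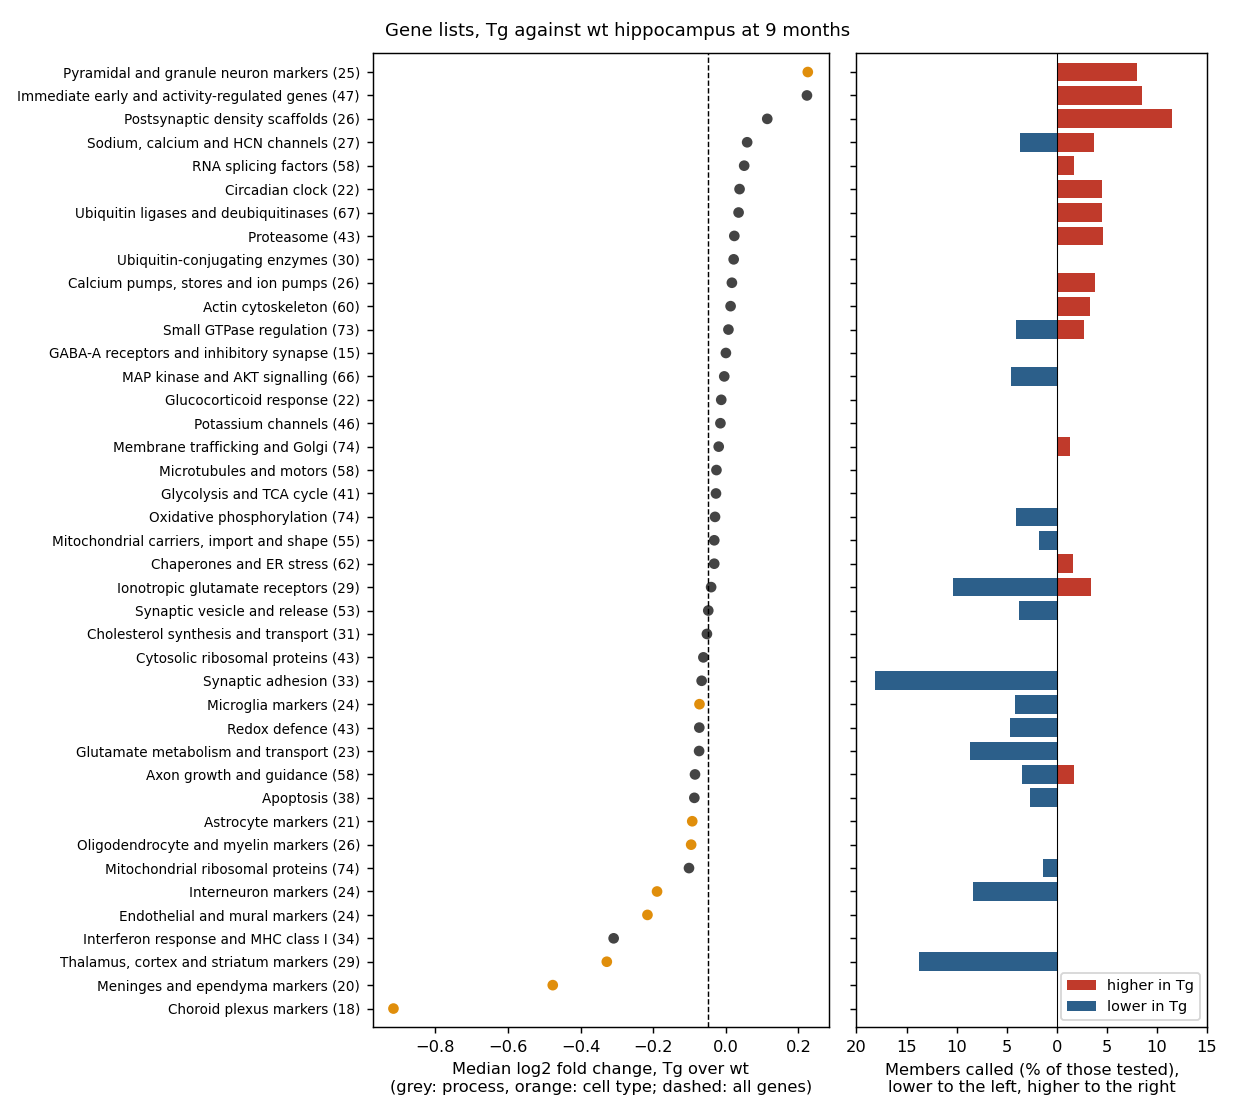
Left, median log2 fold change of Tg over wt at 9 months for each gene list with at least 15 tested members (number tested in parentheses), with process lists in grey, cell type lists in orange and the median of all genes as a dashed line. Right, the percentage of tested members called at an adjusted p under 0.05, with those higher in Tg to the right in red and those lower to the left in blue. Pyramidal and granule neuron markers and immediate early genes have the highest medians, choroid plexus markers the lowest, and synaptic adhesion the highest share of lower genes.

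Of 26 tested genes of the postsynaptic density, 3 rose and 0 fell by the probe set shown (11.5%, where 0.794% of all genes rose). Their median of 0.11 became -0.01 with array medians set equal, where the median of all genes was -0.13. Among their 49 further probe sets, 8 were higher and 3 lower, the lower ones of Ppp3cb (-0.73), Cask (-0.43) and Dlgap4 (-0.33). Besides Dlg4, Camk2b, a subunit of the calcium/calmodulin-dependent kinase CaMKII, had 7225, 6751 and 6517 in Tg and 5382, 5418 and 5644 in wt (0.32 ± 0.08, adjusted p = 0.0201). Kalrn, kalirin, which shapes dendritic spines, had 9671, 8848 and 10429 in Tg and 7394, 7552 and 7981 in wt (0.33 ± 0.09, adjusted p = 0.0459). The 7 other probe sets of Kalrn ran from -0.04 to 1.54, and the highest passed (adjusted p = 0.018).

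Of 29 ionotropic glutamate receptor genes and their auxiliary subunits, 1 rose and 3 fell (3.45% and 10.3%, where 0.794% and 2.2% of all genes did). Grin2a, the NMDA receptor subunit GluN2A, had 209, 191 and 378 in Tg and 97.5, 55.7 and 213 in wt (1.24 ± 0.30, adjusted p = 0.0217), and wt replicate 3 lay within the range of the Tg mice. Grik3, a kainate receptor subunit, had 252, 206 and 194 in Tg and 328, 392 and 377 in wt (-0.75 ± 0.21, adjusted p = 0.0402). The AMPA receptor auxiliary subunits Cacng2, or stargazin, and Cacng4 were at -0.54 ± 0.15 (adjusted p = 0.0395) and -0.71 ± 0.16 (adjusted p = 0.0136). Another probe set of Cacng2 was lower as well, at -0.76 (adjusted p = 0.033), while the third gave 0.07 and the other of Cacng4 gave 0.01. Among this list's 28 further probe sets 1 was higher and 1 lower. The higher one was of Grin2b, another NMDA receptor subunit (1.06, adjusted p = 0.0102), whose shown probe set gave 0.15. Of 9 metabotropic receptor genes and scaffolds, Grm4, an inhibitory presynaptic receptor, fell, at -0.69 ± 0.19 (adjusted p = 0.0403). Of 23 genes of glutamate metabolism and transport, Gad2 and Slc17a6 fell and 0 rose by the probe set shown (8.7% lower, where 2.2% of all genes fell). Slc1a1, a neuronal glutamate transporter, was at -0.04 ± 0.07 by its shown probe set (adjusted p = 0.766), while its 2 other probe sets passed and were higher, at 0.33 and 0.52 (adjusted p = 0.03 for both).

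Synaptic adhesion had the highest share of lower genes of the lists shown. Of 33 tested, 6 fell and 0 rose (18.2%, where 2.2% of all genes fell), while of their 48 further probe sets 2 were higher and 4 lower. Cbln1, a secreted cerebellin that bridges neurexins and delta glutamate receptors, had 144, 172 and 134 in Tg and 399.9, 258 and 276 in wt (-1.04 ± 0.22, adjusted p = 0.00912), and its 2 other probe sets gave -1.49 (adjusted p = 0.0023) and -1.26 (adjusted p = 0.0043). Its relative Cbln2 had 111, 165 and 154 in Tg and 286, 189 and 234 in wt (-0.72 ± 0.21, adjusted p = 0.0491). Cbln1 and Cbln2 were thus lower in every Tg mouse. Flrt3, a ligand of latrophilins, had 1067, 900.4 and 576 in Tg and 1062, 1335 and 1205 in wt (-0.54 ± 0.13, adjusted p = 0.0177), and Tg replicate 1 reached the wt range. Cadm1, a homophilic adhesion protein, was at -0.35 ± 0.09, Ptprf, the receptor phosphatase LAR, at -0.44 ± 0.11, and Nlgn2, the neuroligin of inhibitory synapses, at -0.24 ± 0.07, with adjusted p from 0.0237 to 0.0359. Leaving out 1 mouse at a time gave 2 to 7 falls in the list, with 2 without Tg replicate 3 or wt replicate 2. Another probe set of Ptprf gave 0.20 and another of Nlgn2 0.26.

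Of 53 genes of synaptic vesicles and release, Unc13c and Rab3b, a GTPase of vesicle exocytosis, fell and 0 rose (3.77% lower, where 2.2% of all genes fell). Among the list's 74 further probe sets 2 were higher and 1 lower. Rab3b had 636, 986 and 811 in Tg and 1392, 1357 and 938 in wt (-0.60 ± 0.17, adjusted p = 0.0477), with Tg replicate 2 inside the wt range. Of 15 genes of GABA-A receptors and the inhibitory synapse and of 46 potassium channel genes 0 passed by the probe set shown for each (1 and 5 at an unadjusted p under 0.05). Some of their other probe sets did. These were higher for Gabbr1, a GABA-B receptor subunit (0.56, adjusted p = 0.0098), and for the potassium channel genes Kcnd2 (0.44, adjusted p = 0.034), Kcnip2 (0.50, adjusted p = 0.016) and Kcnq3 (0.69, adjusted p = 0.047), and lower for Kcnn1 (-1.21, adjusted p = 0.025). Kcns3, a potassium channel gene outside the list, was lower and is described further on. Of 27 sodium, calcium and HCN channel genes, Cacna1h rose and Cacnb4, an auxiliary calcium channel subunit, fell, at -0.41 ± 0.10 (adjusted p = 0.0181). Other probe sets of Cacnb4 gave -0.24 and -0.12. Of 26 genes of calcium pumps and stores, Atp2b1, a plasma membrane calcium pump, rose, with 14348, 12022 and 12726 in Tg and 10084, 8899 and 10499.9 in wt (0.41 ± 0.09, adjusted p = 0.0111). Its 2 other probe sets gave 0.23 and -0.01.

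Of 67 ubiquitin ligases and deubiquitinases, 3 rose and 0 fell (4.48%, where 0.794% of all genes rose). Usp34, a deubiquitinase, had 2675, 2849 and 2896 in Tg and 1917, 2402 and 2385 in wt (0.34 ± 0.07, adjusted p = 0.01), so every Tg mouse was higher. Cbl, a ligase that tags receptor tyrosine kinases, was at 0.53 ± 0.14 (adjusted p = 0.0304), with wt replicate 1 among the Tg mice, and Otub1, a deubiquitinase, was at 0.55 ± 0.15 (adjusted p = 0.0436). Other probe sets gave 0.20 and -0.09 for Usp34, 0.26 and 0.04 for Cbl, and 0.03 for Otub1. Of 43 proteasome genes 2 rose and 0 fell (4.65%). Psmc6, a subunit of the cap, and Psmb4, of the core, rose by 0.20 ± 0.05 and 0.16 ± 0.05 (adjusted p = 0.0373 and 0.0487). Their other probe sets were negative, at -0.07 and -0.50 for Psmc6 and -0.01 for Psmb4. Of 30 ubiquitin-conjugating and activating enzymes 0 passed by the probe set shown (2 lower at an unadjusted p under 0.05), although other probe sets of the conjugating enzymes Ube2k (2.11, adjusted p = 0.0077), Ube2w (1.83, adjusted p = 0.023) and Ube2h (0.30, adjusted p = 0.021) were higher. The shown probe sets of these enzymes gave 0.10, 0.17 and 0.07. Probe sets of the same enzymes also gave -0.34 (adjusted p = 0.053) and 0.27 for Ube2k, 0.00 for Ube2w, and -0.05 and 0.42 for Ube2h. Of 62 chaperones and genes of endoplasmic reticulum stress only Hspa2, a member of the HSP70 family, rose, at 0.33 ± 0.10 (adjusted p = 0.048).

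Of 74 subunits of oxidative phosphorylation, 3 fell and 0 rose (4.05%, where 2.2% of all genes fell), with a median of -0.03. Atp5d, a subunit of ATP synthase, had 8781, 9291 and 8449 in Tg and 10808, 10385 and 10465 in wt (-0.26 ± 0.06, adjusted p = 0.0124). Every Tg mouse was lower, by a small step. Ndufs7 of complex I was at -0.22 ± 0.06 and Cox7a2l, a factor of respiratory supercomplexes, at -0.24 ± 0.07, with adjusted p of 0.0447 and 0.0468. Of 55 genes of mitochondrial carriers, import and shape, Timm22, the core of the carrier import complex, fell (1.82%), at -0.39 ± 0.11 (adjusted p = 0.0385). Of 74 mitochondrial ribosomal proteins 1 passed (1.35%), Mrps35, at -0.57 ± 0.14 (adjusted p = 0.0211), and the median was -0.10, with 55 of the 74 below 0 and 7664 of 12844 below 0 over all genes. Of 43 cytosolic ribosomal proteins and 41 enzymes of glycolysis and the TCA cycle 0 passed (5 and 6 at an unadjusted p under 0.05), with medians of -0.06 and -0.03. Of 43 genes of redox defence 2 fell and 0 rose (4.65%). Gpx3, a secreted glutathione peroxidase, was at -1.24 ± 0.34 (adjusted p = 0.0396) and Cat, catalase, at -0.53 ± 0.15 (adjusted p = 0.0459). A second probe set of Cat gave 0.07, and with 50 added to each signal Gpx3 was at -0.86.

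Of 60 genes of the actin cytoskeleton, 2 rose and 0 fell (3.33% higher, where 0.794% of all genes rose). Of their 102 further probe sets 7 were higher and 1 lower, where 286 and 163 of all 10510 further probe sets were. Capza2, which caps actin filaments, had 11411, 10201 and 10987 in Tg and 9159.8, 8206 and 9344 in wt (0.29 ± 0.06, adjusted p = 0.00671), and Actb, beta-actin, had 31339.8, 29489 and 32095 in Tg and 27194, 26420.3 and 28131 in wt (0.18 ± 0.05, adjusted p = 0.0418). Of 58 genes of microtubules and motors 0 passed (8 at an unadjusted p under 0.05), while of their 97 further probe sets 3 were higher and 0 lower. Of 58 genes of axon growth and guidance, Nrn1 rose, and Rgma and Gap43, a growth cone protein, fell. Gap43 had 2147, 2340.5 and 2210.1 in Tg and 3605, 2847 and 2763 in wt (-0.45 ± 0.13, adjusted p = 0.0489). Among 73 regulators and members of the small GTPases 2 rose and 3 fell (2.74% and 4.11%, where 0.794% and 2.2% of all genes did). Rab27b, a GTPase of secretory vesicles, had 1008, 1056 and 889.9 in Tg and 1318, 1255 and 1269.8 in wt (-0.38 ± 0.08, adjusted p = 0.00577), and Rit2, a neuronal Ras-like GTPase, was at -0.33 ± 0.07 (adjusted p = 0.0104). Every Tg mouse was lower for both. The 3 other probe sets of Rab27b gave -0.83 (adjusted p = 0.0091), -0.27 and 0.11.

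Of 58 splicing factors Srsf9 alone passed, and 8 were higher and 0 lower at an unadjusted p under 0.05. The list's median of 0.05 became -0.08 with array medians set equal. Of 66 genes of MAP kinase and AKT signalling 3 fell and 0 rose (4.55% lower, where 2.2% of all genes fell). Among the falls were Map3k9, a mixed-lineage kinase, at -0.56 ± 0.15 (adjusted p = 0.0384), and Prkar2b, a regulatory subunit of protein kinase A, at -0.41 ± 0.12 (adjusted p = 0.0488). Among this list's 118 further probe sets 5 were higher and 1 lower. Of 74 genes of membrane trafficking, Sorl1, a sorting receptor of endosomes, rose, at 0.35 ± 0.09 (adjusted p = 0.0265), and of 22 clock genes Bhlhe40, a repressor that neuronal activity also induces, rose, at 0.39 ± 0.10 (adjusted p = 0.0325). Of 38 apoptosis genes only Birc5, survivin, which dividing cells express, fell, at -2.90 ± 0.62 (adjusted p = 0.00885). Its signals were below the array median in every mouse, and with 50 added it was at -0.90. Of 22 glucocorticoid-responsive genes and 31 genes of cholesterol synthesis and transport 0 passed (9 and 4 at an unadjusted p under 0.05).

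Of 36 tested genes that the text of the study names, 2 rose and 1 fell by the probe set shown (5.56% and 2.78%, where 0.794% and 2.2% of all genes did). Among the 79 further probe sets of these genes, 8 were higher and 0 lower, where 286 and 163 of all 10510 further probe sets were. The genes were chosen there on these arrays and are not independent evidence of direction. Besides Egr2, Zeb2, a zinc finger repressor that acts in neuronal and glial development, had 7125, 5787 and 7219 in Tg and 4326, 3283 and 4268 in wt (0.77 ± 0.17, adjusted p = 0.0164). Klhdc8a, a kelch-domain protein, had 109, 182 and 143 in Tg and 271, 329 and 244 in wt (-0.98 ± 0.17, adjusted p = 0.00262). Neither gene overlapped between the groups, and the 3 other probe sets of Zeb2 were positive, from 0.27 to 0.59.

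The difference at 9 months was next compared with the mean difference at the other 4 ages. On their own, those ages gave 1 called probe set at 10 days, 0 at 4.5 months, 0 at 14.5 months and 6 at 20 months at the stricter threshold (limma; 1914, 1601, 263 and 1199 at an unadjusted p under 0.05). The difference of differences passed an adjusted p under 0.05 for 344 probe sets, of which 158 had a higher and 186 a lower Tg minus wt value at 9 months (limma, 0.588% and 0.692%), or 37 and 104 genes (0.288% and 0.81%). Of the 29 named rises and falls 26 were among them, but they were chosen by the 9-month value that this difference holds, so this is no further evidence. At the other ages their own values ran from -0.46 for Deptor at 10 days to 0.37 for Tshz2 at 10 days. At 4.5 months 13 of the 15 falls were also below 0, among them Ddit4l at -0.42, Unc13c at -0.40 and Resp18 at -0.39, and 8 of the 14 rises were above 0. Rraga gave -0.02, 0.00, 0.10 and 0.00 at 10 days, 4.5, 14.5 and 20 months, and Ldb2 gave 0.03, -0.20, 0.04 and -0.05. Nts was at -0.13, -0.07, -0.25 and 0.03. Of the immediate early genes, Egr2 was at -0.85 at 4.5 months and 1.40 at 20 months and Fos at -0.36 and 1.18, so the value at 9 months was not the only positive one for either. Against a single neighbouring age, 10 probe sets passed with 4.5 months and 4 with 14.5 months. Age and array set cannot be told apart here, since the arrays of 9 months had the highest beta-actin ratios and lower signals of a spiked-in bacterial poly-A control, 9.66 to 10.2 on the log2 scale against 11.8 to 13.3 at other ages.

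**Figure D5:**
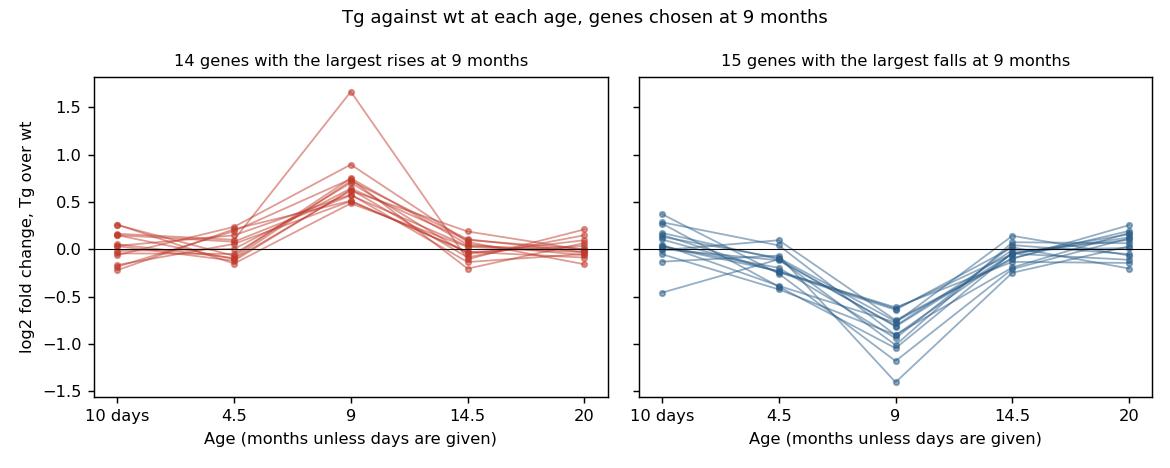
Log2 fold change of Tg over wt (vertical axis) at each of 5 ages for the 14 genes that rose most (left, red) and the 15 that fell most (right, blue) at 9 months, 1 line for each gene. They were chosen at 9 months, where they lie from 0.49 to 1.67 and from -1.41 to -0.61, and at other ages they lie between -0.46 and 0.37.

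The 6 genes with the smallest p in that comparison were Sox3, Kcns3, Tbc1d30, Erg, Vwc2l and Mboat2. Sox3, a transcription factor of neural progenitors, had 7.95, 4.21 and 11.5 in Tg at 9 months and 143, 80.1 and 114 in wt, while its log2 fold changes at 4.5 and 14.5 months were -0.17 and 0.15. Kcns3, a modulatory potassium channel subunit, had 20.2, 16.1 and 17.7 in Tg and 117, 128 and 139 in wt. Erg, a transcription factor of endothelial cells, had 14.1, 11.7 and 29.0 in Tg and 95.5, 125 and 109.8 in wt. For these 3 the Tg signals lay far below the array median and the wt signals near it, and with 50 added to each signal the log2 fold changes of -3.91 ± 0.28, -2.84 ± 0.24 and -2.70 ± 0.43 became -1.47, -1.39 and -1.23. A second probe set of Kcns3 gave -0.09 (adjusted p = 0.89). Vwc2l, a secreted protein with von Willebrand factor domains, had 81.7, 107 and 62.7 in Tg and 186, 315 and 336 in wt (-1.73 ± 0.25, and -1.28 with 50 added). No mouse of one group reached the other for any of these genes.

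Within each genotype the 9-month arrays were also set against the mean of 4.5 and 14.5 months. These comparisons share their arrays with the one above, and they hold the difference between array sets. At an adjusted p under 0.05, in Tg 4868 probe sets were higher and 5589 lower (18.1% and 20.8%) and in wt 4566 were higher and 4925 lower (17.0% and 18.3%). Nts was at -1.26 in Tg and -0.02 in wt, Ldb2 at -0.90 in Tg and -0.03 in wt, and Unc13c at -0.83 in Tg and 0.00 in wt. For these 3 genes the Tg value was the larger step from the neighbouring ages. AY036118 was at -0.18 in Tg and -1.85 in wt, and Alkbh8 at -0.04 in Tg and -0.62 in wt, so here the wt value was the larger step. Which genotype changed cannot be told from these values, since they hold the difference between array sets. Dlg4 was lower at 9 months in both, at -0.78 in Tg and -1.50 in wt, and Polr2a likewise, at -1.72 in Tg and -0.97 in wt.

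The direction of the calls differed between kinds of probe set. Among the 12844 probe sets that show a gene here, 102 were higher and 282 lower at an adjusted p under 0.05, with a median of -0.05. Among the 10510 further probe sets of the same genes, which have lower signals, 286 were higher and 163 lower, with a median of 0.03, and among 2951 probe sets listed for no gene 42 were higher and 39 lower, with a median of 0.10. At 4.5 months the medians of these 3 kinds were 0.00, 0.01 and -0.08. The part of RNA length in this split was not tested, and the beta-actin and transferrin receptor ratios differed between Tg and wt in opposite directions. Of the 89 genes past the stricter threshold, 49 had more than 1 tested probe set, and for 33 of them all probe sets had the same sign.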

How the data were processed

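RNA of mouse hippocampus was hybridised to 31 arrays. The labels give 4 wt arrays at 10 days, while the methods of the study name 3 mice of each genotype at each age. Whether each of the 31 arrays came from a separate mouse is therefore not settled. Per the labels, the deposited values are linear signal intensities from the MAS5 algorithm (version not given in the sources used here), while the methods of the study also name RMA. The authors had scaled each array to a trimmed mean of 500 (2% trimmed). These intensities were converted to log2 values and then quantile normalized across all 31 arrays, so differences in overall level between arrays are removed. A probe set was kept if 3 or more arrays showed it above that array's median. limma 3.58.1 in R 4.3.3 fitted 10 group means with moderated variances (trend and robust, 21 residual degrees of freedom) and Benjamini-Hochberg adjustment over all 26877 probe sets. A call of a probe set needed a fold change of 1.3 with an adjusted p no higher than 0.01, and a call of a single gene an adjusted p under 0.05. Gene names came from the platform annotation, and 34945 probe sets have 1 gene.

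The text names the 15 largest rises and falls (14 and 15 genes met the rule), the 6 genes with the smallest p against other ages, members of each list with the smallest p, and Glud1. Further list members, such as Fos, Arc, Sst and Vip, were named for their known roles after their values were seen, as were genes whose other probe sets passed, such as Slc1a1 and Kcnd2. Lists, members and tests were chosen with earlier results of these data known. Array files without detection calls give no measured background, and the number of arrays limits the precision. The fit was also run on simulated data, but the outcome is not given here. Whether that simulation held the wider spread of the mice compared here is not given either. No conclusion about the calls is drawn from the simulation. Alternatives changed the scaling, offset, filter, moderation, block, arrays and probe set rule. EDGE, SAM and Cyber-T were not run.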

Additional observations from a re-analysis of the deposited data

Results flagged for a closer look

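The difference between Tg and wt hippocampi at 9 months departed from the mean difference at the other ages for 344 probe sets, by limma's test of that difference (adjusted p under 0.05), and for the named genes given here. All values are the log2 fold change of Tg over wt at 9 months less the mean of that at the other ages. With array weights by age 5 probe sets passed, and the array set of 9 months and the age cannot be told apart.

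The departure was upward at 2.33 for Egr2, 1.57 for AY036118, 0.87 for Jph1, 0.77 for Carf, 0.71 for Pwwp2a, 0.71 for Dlg4, 0.71 for Mboat2, 0.64 for Abcb8, 0.62 for Rraga, 0.58 for Dgkh, 0.56 for Rsl1d1, 0.56 for Alkbh8, 0.51 for Cacna1h, 0.50 for Srsf9, 0.46 for Pphln1, 0.35 for Usp34 and 0.33 for Nrn1. Egr2, which has the highest of these values, had low signals in 2 wt mice.

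The departure was downward at -3.87 for Sox3, -2.98 for Birc5, -2.93 for Erg, -2.69 for Kcns3, -1.78 for Drd1, -1.68 for Vwc2l, -1.30 for Nts, -1.25 for Cbln1, -1.19 for Tshz2, -1.03 for Unc13c, -0.99 for Klhdc8a and -0.95 for Tuba8. Sox3, Birc5, Erg and Kcns3 had Tg signals far below the array median. Smaller downward departures were -0.90 for Ldb2, -0.85 for Tbc1d30, -0.81 for Rgma, -0.80 for 2610306M01Rik, -0.78 for Polr2a, -0.78 for Ddit4l, -0.71 for Resp18, -0.71 for Cacng4, -0.60 for Entpd2, -0.60 for Flrt3, -0.36 for Rit2, -0.33 for Rab27b and -0.26 for Atp5d.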

How the results depend on the processing

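The main counts were 83 probe sets higher and 109 lower in Tg, and 344 departing from other ages. Array medians set equal gave 17, 64 and 95. Without quantile normalization 57 were lower. Taking each gene's median probe set value gave 30, 60 and 157 of 12844 genes, where the main counts by gene were 19, 70 and 141. No fold threshold at an adjusted p under 0.05 gave 436 and 498. The 6 arrays alone gave 0 and 0, also with a replicate block, and array weights by age, added after seeing the data, gave 3, 3 and 5. Leaving out 1 mouse at a time gave 18 to 168 higher (18 without Tg replicate 3, 50 without wt replicate 2, 168 without wt replicate 3), 40 to 135 lower (41 without Tg replicate 3, 40 without wt replicate 2) and 147 to 599 departing (147 without Tg replicate 3, 534 and 599 without Tg replicates 1 and 2, 597 without wt replicate 3). A replicate block by number gave 40 and 47. The deviations of same-numbered Tg and wt mice had correlations of -0.022, -0.006 and 0.032, and 1 of 3 numbers matched best. Pairing by number was thus not seen, but 3 mice of each genotype cannot settle whether the number pairs them. The other alternatives run (50 added, no filter, a 60th percentile filter, moderation without trend and robust, a 1.5-fold threshold) kept these counts within 1.5 times. The cause of these changes was not tested, beyond the fewer arrays or genes each setting holds.

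Of 88 named genes past an adjusted p under 0.05, those losing it numbered 20 without quantile normalization, 38 with array medians equal, 7 with 50 added, 27 with no filter, 27 without trend and robust, 21 with the block, 14 to 40 without 1 mouse, 84 with the 6 arrays alone and 77 with weights by age. With the median over probe sets, Nlgn2 (0.0075) and Psmc6 (-0.066) changed sign. The difference in the Gapdh ratio was -0.06 and that in the beta-actin ratio -0.14 (exact permutation test, two-sided, p = 0.7 and 0.1). Limits are 3 mice of each genotype, the widest spread of all ages, RNA ratios that differed between ages, and no measured background for signals below the array median.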
